A study of Rattus with 27 samples.

Results

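The genes described here encode the haem synthesis pathway. They were chosen by name: Alas1, Alas2, Alad, Uros, Urod, Cpox, Ppox and Fech, which encode enzymes of the pathway, and Slc25a38, which encodes a carrier of the mitochondrial inner membrane that supplies glycine to it. These 9 genes, and the gene lists set beside them below, were chosen with earlier results of these data known. The shares of them that were called are therefore descriptions. All 9 were measured, out of 14506 genes with a probe that names a single gene, and each of the 9 is represented by 1 probe. The probes are 10940599 for Alas1, 10932912 for Alas2, 10877433 for Alad, 10726346 for Uros, 10878926 for Urod, 10753574 for Cpox, 10769840 for Ppox, 10804875 for Fech and 10914303 for Slc25a38.

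Haem is the iron-containing ring that carries oxygen in haemoglobin and electrons in cytochromes. Its synthesis starts in the mitochondrion, where an aminolevulinate synthase joins glycine to succinyl-CoA, passes through the cytosol for the formation of the ring, and returns to the mitochondrion, where ferrochelatase inserts iron. Mammals have a housekeeping synthase, Alas1, which haem represses in the liver, and an erythroid synthase, Alas2, which is expressed in red cell precursors and whose translation depends on iron. Reticulocytes, the youngest red cells in blood, still hold mRNA of the erythroid pathway, and the rat spleen makes red cells as well as clearing old ones.

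The study measured RNA on 27 Affymetrix rat arrays, from 9 Sprague Dawley rats killed at 6 h. White blood cells separated from whole blood, a spleen homogenate and a brain homogenate were taken from every rat. Each of 3 titles, vehicle, model and sham, covers 3 rats and therefore 3 arrays per tissue. The vehicle-labelled rats (numbers 2, 4 and 5) and the model-labelled rats (numbers 1, 2 and 3) had the MCAO operation, an occlusion of the middle cerebral artery that models ischaemic stroke. The sham rats (numbers 3, 4 and 5) were anaesthetised and had their vessels exposed, and nothing more. By the protocol, one operated group was a vehicle control and the other had the herbal formula YJ at 25 mg/kg, whereas the titles read vehicle and model. The labels do not settle which of them was given YJ, so both are called by their titles. Age, sex and the route of dosing are not given in the sources used here.

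Values are log2 intensities as the authors deposited them, so a difference of 1 is a doubling of intensity, and levels are compared between arrays of one gene, since levels of different probes do not compare. Array medians lay between 4.96 and 5.31, and arrays of one group and tissue correlated at 0.968 to 0.995 over all genes. Neuron markers averaged 10.0 to 10.5 in brain arrays and 4.04 to 4.79 in the other tissues, and T cell markers averaged 8.12 to 9.16 in white blood cells and 4.18 to 4.44 in brain. Markers of platelets averaged 11.7 to 12.2 in white blood cells and 4.59 to 4.88 in brain. Among brain arrays, those of sham 5 and vehicle 2 stood apart by regional markers. Relative to the sham mean, hypothalamus and thalamus markers were at 1.74 in sham 5 and between -1.09 and -0.62 in the other 8 brains. Of 6 listed cortex markers only 2 were measured, Neurod6 and Rasgrf2. Their mean was at -1.67 in vehicle 2 and -1.36 in sham 5. With 3 arrays per group, the number of arrays limits the precision of every comparison. Each p-value sets a difference against the spread between arrays within groups. That spread is shared over the groups of a fit and drawn by limma toward the spread of all genes. Calls are those of limma at an adjusted p (Benjamini-Hochberg over all 14506 genes) under 0.05, each difference is given with its standard error, and intervals cover 95%.

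White blood cells of vehicle-labelled rats had higher levels of 4 haem synthesis genes than those of sham rats. Alas2 and Fech, the first and the last enzyme of the erythroid pathway, were 6.33-fold and 7.34-fold higher, Urod was 3.06-fold higher and Cpox was 1.51-fold higher. The other 5 genes, Alas1 among them, did not pass the test. So 4 of 9 were called higher, where 1.58% of all genes were, and none was called lower. In bulk RNA, more cells of a type and more RNA per cell cannot be told apart.

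Alas2, the erythroid synthase, read 11.62, 11.47 and 10.95 in the white blood cells of vehicle-labelled rats 2, 4 and 5. It read 9.74, 9.65 and 9.94 in model-labelled animals 1, 2 and 3, and 8.50, 8.45 and 9.10 in sham rats 3, 4 and 5. The 3 groups did not overlap, with vehicle-labelled rats highest and sham rats lowest. The vehicle-labelled rats exceeded the sham rats by 2.66 ± 0.19 (SE; adjusted p = 1.02e-05, limma) and the model-labelled rats by 1.57 ± 0.19 (adjusted p = 0.000757). The model-labelled rats stood 1.09 ± 0.19 from the sham rats, a 2.13-fold difference that missed the threshold (adjusted p = 0.0906).

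Fech, or ferrochelatase, which places the iron in the finished ring, followed the same order. Its readings were 11.09, 10.88 and 10.23 in vehicle-labelled animals, 8.76, 8.57 and 8.62 in model-labelled animals and 7.89, 7.46 and 8.22 in sham rats. Again no group overlapped another, and the step between the vehicle-labelled and the model-labelled rats was the wider one. The difference was 2.88 ± 0.21 between vehicle-labelled and sham rats (adjusted p = 1.06e-05) and 2.08 ± 0.21 between vehicle-labelled and model-labelled rats (4.24-fold, adjusted p = 0.000352). Between model-labelled and sham rats it was 0.79 ± 0.21, which did not pass (adjusted p = 0.472).

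Urod, which trims the side chains of uroporphyrinogen in the cytosol, differed from these. Vehicle-labelled rats read 9.91, 9.61 and 8.99, model-labelled rats 7.87, 7.98 and 7.86, and sham rats 8.06, 7.66 and 7.95. Here the model-labelled readings lay among the sham readings, and the vehicle-labelled rats stood above both. The differences were 1.61 ± 0.19 from sham (adjusted p = 0.000287) and 1.60 ± 0.19 from the model-labelled rats (3.03-fold, adjusted p = 0.000699). Model-labelled minus sham came to 0.01 ± 0.19, with an interval of -0.40 to 0.43.

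Cpox, the oxidase that makes protoporphyrinogen from coproporphyrinogen, gave 7.63, 7.24 and 7.30 in vehicle-labelled animals, 7.12, 7.15 and 7.0 in model-labelled animals and 6.64, 6.95 and 6.79 in sham rats. The groups did not overlap, but the steps were small. The difference of 0.60 ± 0.13 between vehicle-labelled and sham rats passed (adjusted p = 0.0338), and this call was kept in only 5 of 12 alternative settings, with adjusted p from 0.0307 to 0.588. It was lost without vehicle-labelled rat 2, 4 or 5 and without sham rat 3 or 5, with differences between 0.48 and 0.67 (adjusted p up to 0.134). Quantile normalization (adjusted p = 0.0619) and the fit of all 27 arrays (adjusted p = 0.588) lost it too. Vehicle-labelled minus model-labelled was 0.30 ± 0.13 (adjusted p = 0.428), and model-labelled minus sham was 0.30 ± 0.13 (adjusted p = 0.806).

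Ppox, the enzyme that oxidises protoporphyrinogen, read 5.74, 5.66 and 5.44 in vehicle-labelled animals, 5.28, 5.31 and 5.30 in model-labelled animals and 5.09, 4.90 and 5.28 in sham rats. Vehicle-labelled rats lay above both other groups, but the difference of 0.52 ± 0.13 from sham just missed the threshold (adjusted p = 0.0527) and passed in 4 of 12 alternatives, among them those without vehicle-labelled rat 5 or sham rat 5 (adjusted p = 0.0377 and 0.0301). Uros, which closes the ring, read 5.48, 5.33 and 4.85 in vehicle-labelled animals, 5.05, 4.56 and 4.62 in model-labelled animals and 4.48, 4.71 and 4.50 in sham rats. Vehicle-labelled and sham rats did not overlap, with a difference of 0.66 ± 0.17 (adjusted p = 0.082). Alad, which condenses aminolevulinate to porphobilinogen, read 6.27, 6.17 and 5.52 in vehicle-labelled animals, 5.44, 5.49 and 5.52 in model-labelled animals and 5.60, 5.32 and 5.29 in sham rats. Vehicle-labelled rats 2 and 4 were high, and rat 5 lay within the sham range. The difference from sham was 0.58 ± 0.17 (adjusted p = 0.128). Without vehicle-labelled rat 5, Alad and Uros both passed against sham, at 0.82 (adjusted p = 0.00459) and 0.84 (adjusted p = 0.0172), and Alad passed against the model-labelled rats at 0.74 (adjusted p = 0.00994), where all arrays gave 0.50 ± 0.17 (adjusted p = 0.255).

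Alas1 and Slc25a38, which act at the entry of the pathway, showed no call in white blood cells. Alas1, the housekeeping synthase, read 6.93, 7.15 and 7.20 in vehicle-labelled animals, 7.0, 7.04 and 7.14 in model-labelled animals and 7.06, 6.93 and 6.84 in sham rats, with all groups overlapping. Vehicle-labelled minus sham was 0.15 ± 0.12 with an interval of -0.10 to 0.40 (adjusted p = 0.608), which leaves out a difference of the size seen for Alas2. Slc25a38, the glycine carrier, read 7.49, 7.34 and 6.88 in vehicle-labelled animals, 6.72, 6.64 and 7.18 in model-labelled animals and 7.12, 6.87 and 6.97 in sham rats. Its groups overlapped too, and vehicle-labelled minus sham was 0.25 ± 0.17, with an interval of -0.12 to 0.62 (adjusted p = 0.562).

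**Figure D1:**
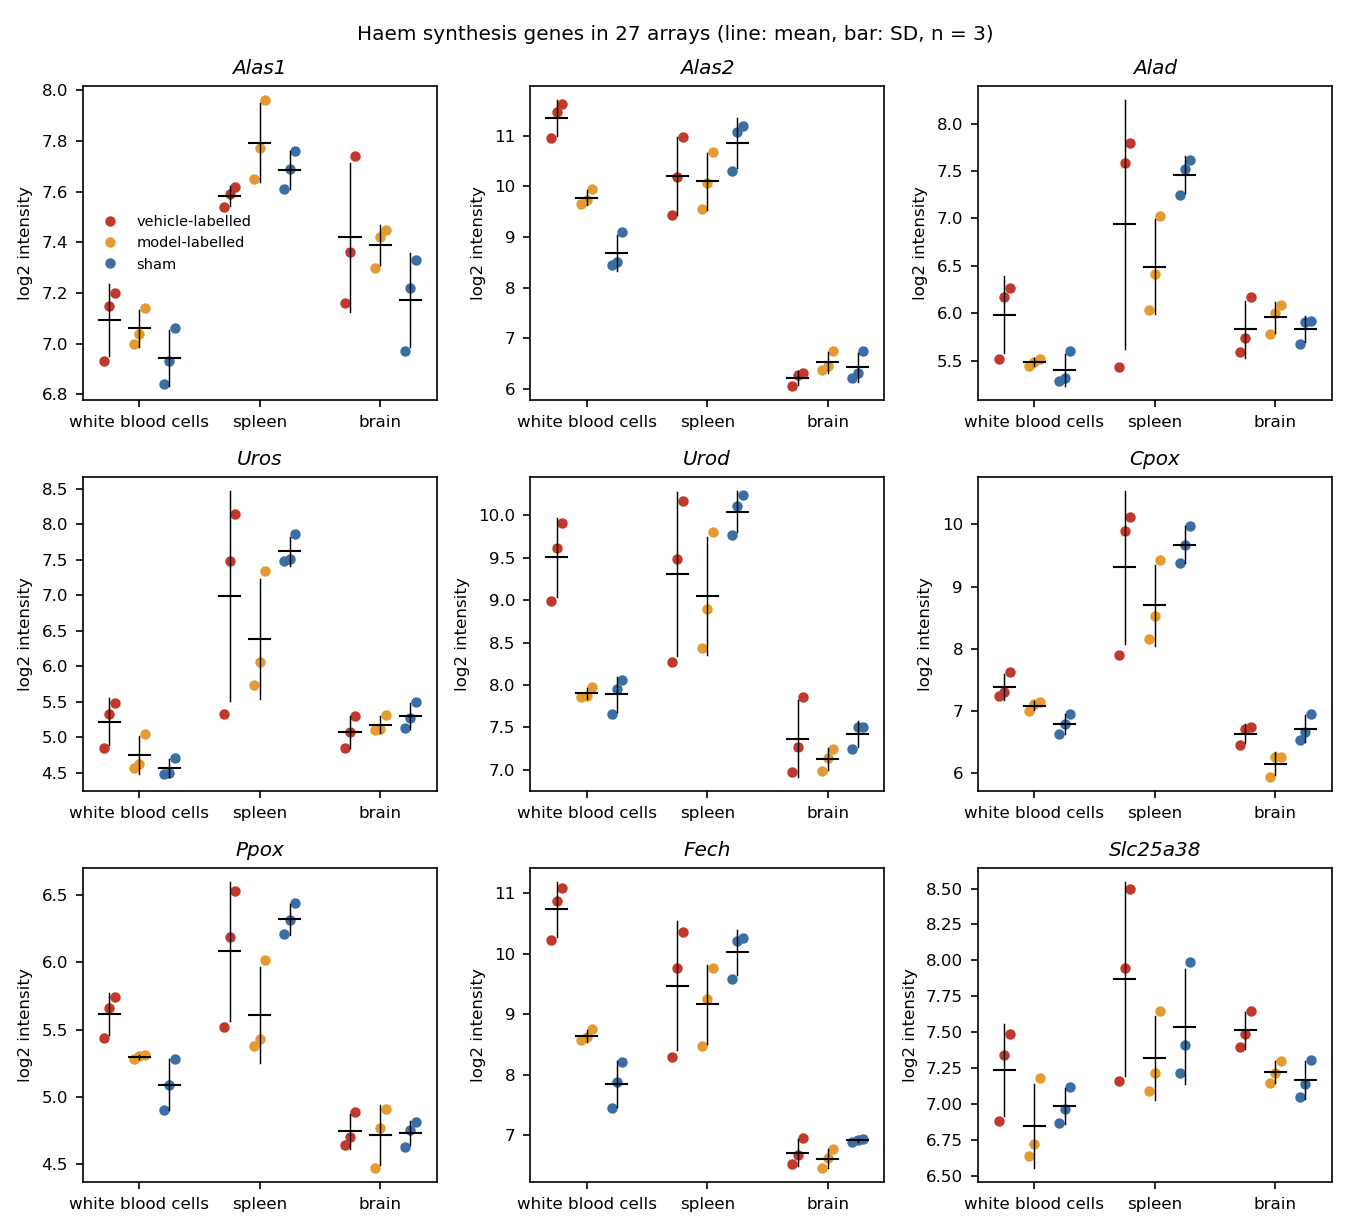
Log2 intensity of each haem synthesis gene (vertical axis, scaled per gene) in vehicle-labelled, model-labelled and sham rats, by tissue; points are arrays, lines are means and bars are SDs of 3 arrays. In white blood cells the 3 groups of Alas2 and of Fech do not overlap, while those of Alas1 do; in spleen the vehicle-labelled points spread widely for all but Alas1.

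Over the 9 genes, the vehicle-labelled and sham white blood cells did not overlap for 6, where 15.3% of all genes did not. All 9 differences were above 0, with a median of 0.60 beside -0.06 over all genes. Against the model-labelled rats, 3 of 9 were called higher (Fech, Urod and Alas2), where 1.26% of all genes were. For 5 of 9 (Alas2, Urod, Cpox, Ppox and Fech) these groups did not overlap, where 18.9% of all genes did not, and the median difference was 0.48 beside -0.02. Between model-labelled and sham rats none of the 9 was called, but neither was any gene, 0% of those tested. In that comparison 880 genes had an unadjusted p under 0.05 and the smallest adjusted p was 0.085. Alas2, Cpox and Fech did not overlap, 3 of 9 where 11.1% of all genes did not, and the median of the 9 was 0.18 beside -0.04. These comparisons share arrays: both differences from sham use the same sham rats, and the third uses the same operated rats.

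The calls for Alas2, Fech and Urod in white blood cells held in 12 of 12 alternatives in both comparisons of the vehicle-labelled rats. Over these, the difference from sham ran from 2.53 to 2.87 for Alas2, from 2.68 to 3.13 for Fech and from 1.41 to 1.87 for Urod. The alternative that takes the mean of a gene's probes could not change these differences, since each of the genes has 1 probe.

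**Figure D2:**
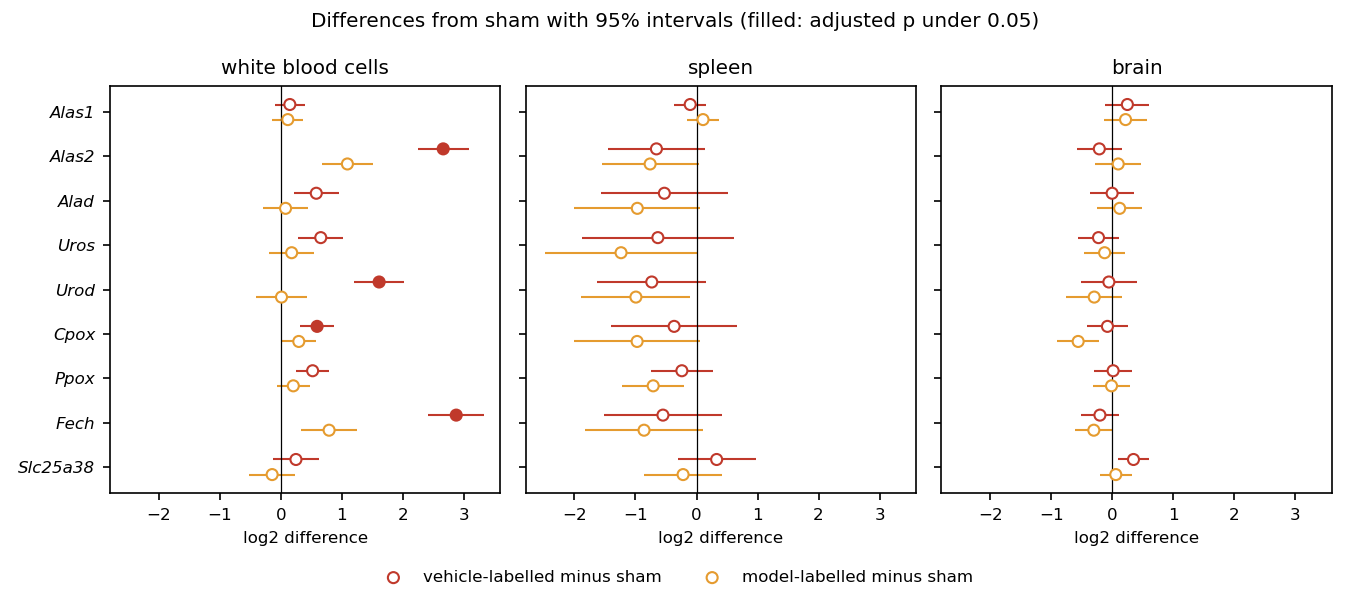
Difference in log2 intensity from sham for vehicle-labelled and model-labelled rats (horizontal axis) in each tissue, with 95% intervals; filled points passed the test at an adjusted p under 0.05. The 4 filled points, Alas2, Urod, Cpox and Fech, are all of vehicle-labelled rats in white blood cells, and most spleen intervals are wide and cross 0.

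Genes around the pathway were counted in the same white blood cell arrays, vehicle-labelled against sham. Of 11 measured genes of mitochondrial iron supply, iron-sulphur assembly and haem intermediates, 3 rose and none fell, where 1.58% of all genes rose. These were Glrx5, a glutaredoxin of iron-sulphur assembly (2.36 ± 0.22, adjusted p = 3.92e-05), Slc25a37, the mitoferrin that carries iron into mitochondria of red cell precursors (2.30 ± 0.23, adjusted p = 6.77e-05), and Iscu, the assembly scaffold (0.93 ± 0.17, adjusted p = 0.0083). The list's median was 0.31, beside -0.06 over all genes, which is also the value to set beside the medians of the other lists here. Of 12 genes of iron uptake, storage and regulation, 3 rose: Ncoa4, the receptor that delivers ferritin for breakdown (1.78 ± 0.20, adjusted p = 0.000178), Tfrc, the transferrin receptor (1.68 ± 0.22, adjusted p = 0.000559), and Tf, transferrin itself (0.58 ± 0.12, adjusted p = 0.0194). None fell, and the median was 0.04. Haem degradation and transport had 2 of 9 genes higher, Blvrb, a biliverdin and flavin reductase abundant in red cells (2.18 ± 0.24, adjusted p = 0.000144), and Slc48a1, a haem transporter (1.27 ± 0.29, adjusted p = 0.0415), with a median of -0.12.

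Globins are the proteins that receive most of the haem in red cells. Of 7 measured genes of globins and their chaperone, 4 rose, where 1.58% of all genes did, with a list median of 0.71: Hba-a3 (2.27 ± 0.14, adjusted p = 3.41e-06), Ahsp, which stabilises free alpha globin (3.19 ± 0.34, adjusted p = 0.000144), Hbb-b1 (1.06 ± 0.11, adjusted p = 0.000144) and Hbb (0.71 ± 0.10, adjusted p = 0.00195). Globin genes have near-identical copies, so these probes may not tell the copies apart. Among 14 regulators of the synthases and of erythroid haem supply, 2 rose, the erythroid factor Klf1 (1.99 ± 0.24, adjusted p = 0.000287) and Eif2ak1, the kinase that halts translation when haem is short (1.35 ± 0.19, adjusted p = 0.00146), with a median of 0.14. No member of these 5 lists fell.

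**Figure D3:**
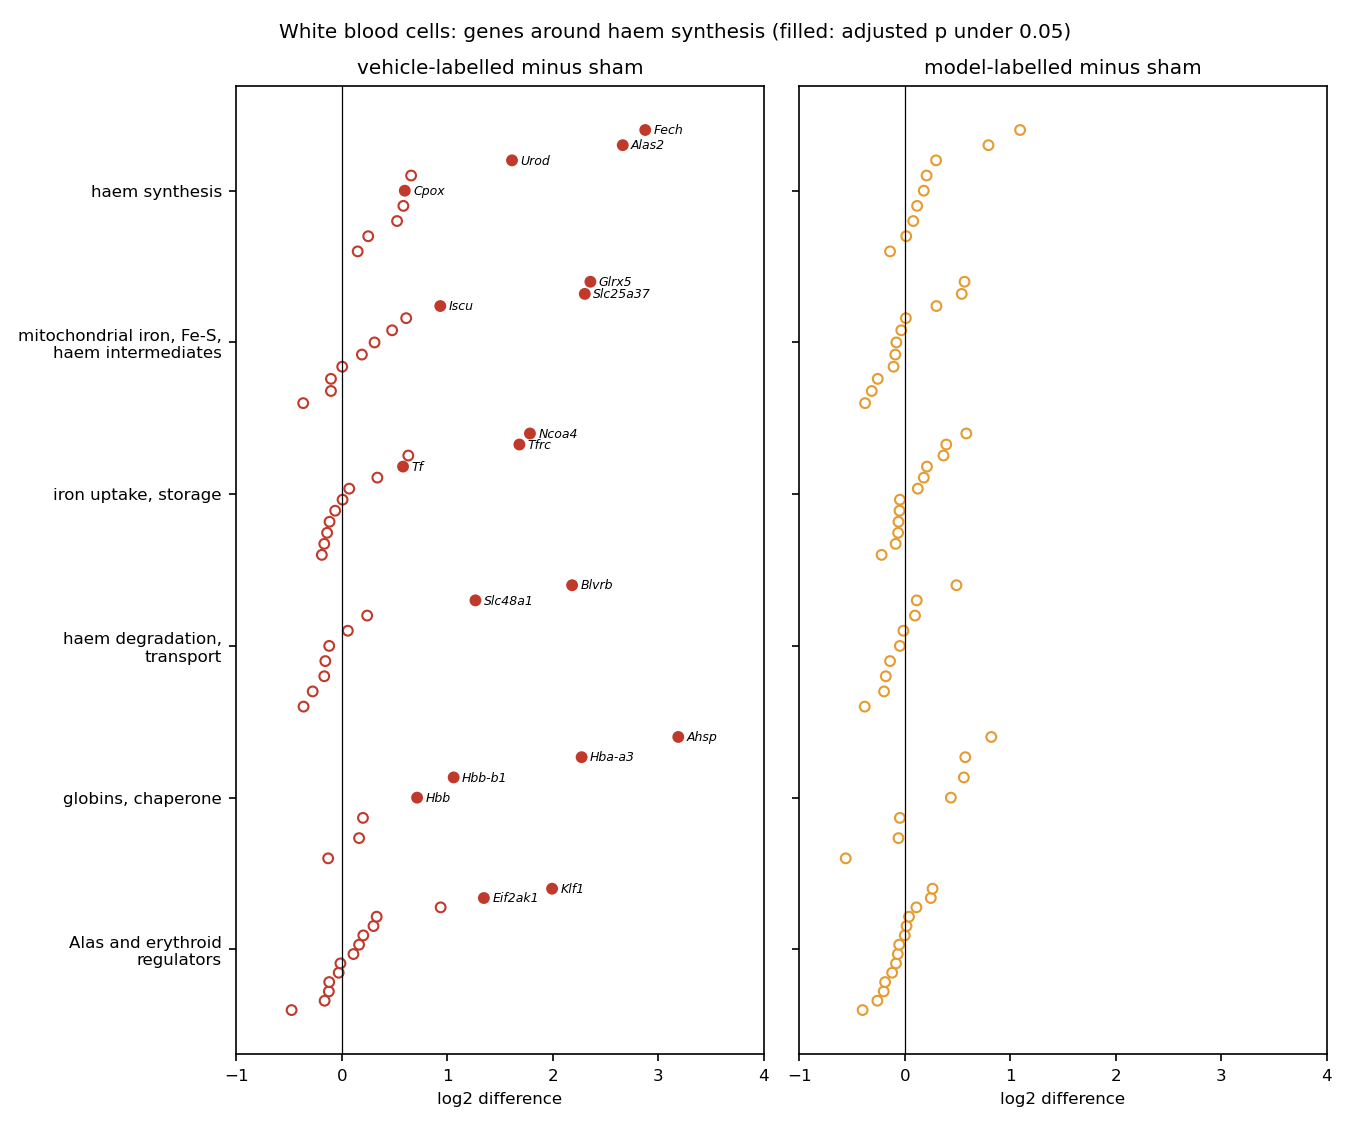
Difference in log2 intensity from sham in white blood cells (horizontal axis) for each measured gene of the haem pathway and of 5 surrounding lists, for vehicle-labelled rats (left) and model-labelled rats (right); filled points passed the test at an adjusted p under 0.05 and carry the gene's name. All filled points are of vehicle-labelled rats and above 0; Ahsp, at 3.19, is the highest.

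Against the model-labelled rats, the vehicle-labelled white blood cells had 4 of 11 genes higher in the mitochondrial list, where 1.26% of all genes were higher: Glrx5 (1.79 ± 0.22, adjusted p = 0.000757), Slc25a37 (1.76 ± 0.23, adjusted p = 0.000974), Iscu (1.01 ± 0.17, adjusted p = 0.00586) and Isca1 (0.73 ± 0.15, adjusted p = 0.0263). The iron list had 2 of 12 (Tfrc at 1.73 and Ncoa4 at 1.39) and the degradation list 1 of 9 (Blvrb at 1.69). The globin list had 2 of 7 (Hba-a3 at 1.45 and Ahsp at 2.63), and the regulators 3 of 14 (Klf1 at 1.73, Eif2ak1 at 1.24 and Gata1, the erythroid master factor, at 1.34). Adjusted p for these ran from 0.000325 for Hba-a3 to 0.0113 for Gata1. Model-labelled against sham rats gave no call in any list. The nearest were Hba-a3 (0.82 ± 0.14, adjusted p = 0.0865) and Hbb-b1 (0.57 ± 0.11, adjusted p = 0.155).

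Markers of other cells were counted in the same arrays. Of 12 measured erythroid and reticulocyte markers, 9 rose in white blood cells of vehicle-labelled rats against sham, where 1.58% of all genes rose, with a list median of 2.24 beside -0.06 over all genes. They include Bpgm, which makes the bisphosphoglycerate that lowers oxygen affinity (2.83 ± 0.20, adjusted p = 9.17e-06), the blood group protein gene Rhd (2.95 ± 0.25, adjusted p = 3.02e-05), the membrane skeleton gene Add2 (2.55 ± 0.23, adjusted p = 3.15e-05) and Slc4a1, the anion exchanger of the red cell (2.24 ± 0.24, adjusted p = 0.000122). Relative to the sham mean, the list averaged 2.16, 1.97 and 1.29 in vehicle-labelled animals, 0.29, 0.29 and 0.41 in model-labelled animals and -0.02, -0.23 and 0.26 in sham rats. Vehicle-labelled rat 5 was the lowest of its group in this list, as it was for Alas2, Fech and Urod.

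Of 12 neutrophil markers 6 rose as well, where 1.58% of all genes did, with a list median of 0.86 and a list mean 1.09 to 1.47 above the sham mean in vehicle-labelled animals, 0.02 to 0.51 in model-labelled animals and -0.20 to 0.14 in sham rats. Ngp and Lcn2, granule protein genes, led them at 3.64 ± 0.23 and 3.45 ± 0.22 (adjusted p = 3.41e-06 for both). None of the 8 T cell, 4 B cell, 4 platelet, 8 monocyte and macrophage or 5 proliferation markers measured passed. The part of red cell or neutrophil content in the results for the haem genes was not tested.

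Array by array, the genes of the pathway fell into an order by how closely they followed the erythroid list. Over the 9 white blood cell arrays, Pearson's r with the list mean was 0.989 for Fech, 0.978 for Urod, 0.963 for Alas2 and 0.948 for Ppox. It was 0.887 for Alad, 0.851 for Uros and 0.824 for Cpox, 0.674 for Slc25a38 and 0.287 for Alas1. These are descriptions over arrays that fall into 3 groups, and the groups' differences are part of each r. With Alas2 itself, r was 0.983 for Fech, 0.953 for Ppox, 0.895 for Urod, 0.876 for Cpox, 0.821 for Uros and 0.793 for Alad, against 0.532 for Slc25a38 and 0.403 for Alas1.

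The 5 genes most like Alas2 over these 9 arrays, by Pearson's r and leaving out the pathway itself and predicted genes, were Ybx3 (0.994), Bpgm (0.991), Hba-a3 (0.989), Slc25a39 (0.986) and Slc4a1 (0.985). Those most like Fech were Glrx5 (0.994), Lgals5 (0.993), Creg1 (0.992), Add2 (0.992) and Car2 (0.991). Those most like Alas1 were Dapk3 (0.969), Herpud1 (0.952), Or1j1 (0.947), Chfr (0.939) and Prr3 (0.936). Of the genes near Alas2, 3 belong to the erythroid or globin lists above (Bpgm, Hba-a3 and Slc4a1). Of those near Fech, 2 belong to the lists above (Glrx5 and Add2), and of those near Alas1, 0 do.

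**Figure D4:**
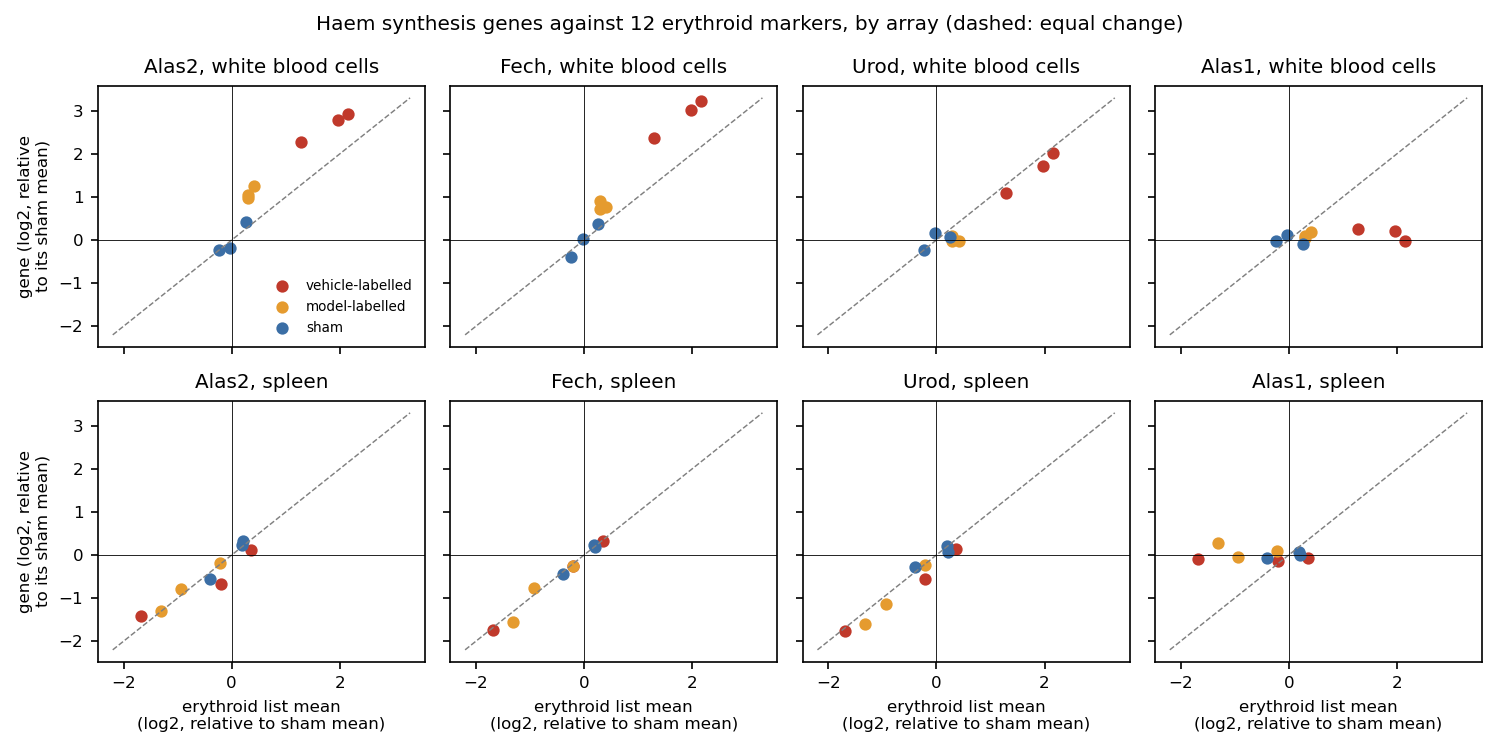
Log2 intensity of Alas2, Fech, Urod and Alas1 (vertical axis) against the mean of 12 erythroid markers (horizontal axis), each relative to its sham mean, for the 9 arrays of white blood cells (top) and of spleen (bottom); the dashed line marks equal change. Alas2, Fech and Urod climb with the markers in both tissues (r of 0.951 to 0.991) and Alas1 does not (0.287 in white blood cells and -0.171 in spleen).

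In the spleen no haem synthesis gene passed the test in any comparison, and the arrays of one group lay far apart. Among vehicle-labelled rats, rat 5 was the lowest of its group for 8 of 9 genes, all but Alas1. Uros showed this most widely, at 7.49, 8.15 and 5.32 in vehicle-labelled rats 2, 4 and 5, 6.06, 7.35 and 5.74 in model-labelled animals and 7.51, 7.49 and 7.86 in sham rats. For Uros the operated groups thus held both high and low spleens, and the sham spleens lay closer together.

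Alas2 read 10.18, 10.98 and 9.44 in spleens of vehicle-labelled rats, 10.07, 10.67 and 9.55 in model-labelled animals and 10.30, 11.19 and 11.08 in sham rats. All 3 groups overlapped. Vehicle-labelled minus sham was -0.66 ± 0.37 (interval -1.45 to 0.14, adjusted p = 0.586) and model-labelled minus sham was -0.76 ± 0.37 (interval -1.56 to 0.04, adjusted p = 0.552). Fech read 9.77, 10.36 and 8.29 in vehicle-labelled animals, 9.25, 9.77 and 8.47 in model-labelled animals and 9.59, 10.22 and 10.26 in sham rats. Both operated groups reached into the sham range, at -0.55 ± 0.44 (adjusted p = 0.698) and -0.86 ± 0.44 (adjusted p = 0.58) from sham. Urod read 9.48, 10.17 and 8.27 in vehicle-labelled animals, 8.90, 9.80 and 8.44 in model-labelled animals and 9.77, 10.11 and 10.24 in sham rats. Its differences from sham were -0.73 ± 0.41 (adjusted p = 0.587) and -0.99 ± 0.41 (adjusted p = 0.482).

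The genes that did not overlap between model-labelled and sham spleens were Alad, Uros and Ppox. Alad read 7.58, 7.80 and 5.43 in vehicle-labelled animals, 6.41, 7.03 and 6.04 in model-labelled animals and 7.25, 7.52 and 7.62 in sham rats. Ppox read 6.19, 6.53 and 5.52 in vehicle-labelled animals, 5.43, 6.02 and 5.38 in model-labelled animals and 6.21, 6.44 and 6.31 in sham rats. The differences of model-labelled from sham rats were -0.97 ± 0.48 for Alad (adjusted p = 0.557), -1.24 ± 0.58 for Uros (adjusted p = 0.532) and -0.71 ± 0.23 for Ppox (adjusted p = 0.373). That is 3 of 9 without overlap, where 17.3% of all genes had none. Cpox read 9.90, 10.12 and 7.90 in vehicle-labelled animals, 8.52, 9.42 and 8.16 in model-labelled animals and 9.38, 9.66 and 9.98 in sham rats, so that its model-labelled rat 2 entered the sham range.

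Alas1 and Slc25a38 gave no call in the spleen either. Alas1 read 7.54, 7.62 and 7.59 in vehicle-labelled animals, 7.65, 7.77 and 7.96 in model-labelled animals and 7.61, 7.69 and 7.76 in sham rats. It was the sole gene of the 9 without overlap between vehicle-labelled and model-labelled spleens (-0.21 ± 0.12, adjusted p = 0.504), where 14.7% of all genes had none. Slc25a38 read 7.95, 8.50 and 7.16 in vehicle-labelled animals, 7.22, 7.65 and 7.09 in model-labelled animals and 7.41, 7.22 and 7.99 in sham rats. It overlapped in every comparison.

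Against sham, 8 of 9 differences lay below 0 in both operated groups. The medians were -0.53 for vehicle-labelled spleens (0.04 over all genes) and -0.86 for model-labelled spleens (0.07 over all genes). The vehicle-labelled spleens did not share this direction. Rat 5 lay below the sham mean for every gene, from -0.10 for Alas1 to -2.30 for Uros. Rat 4 lay above it for every gene but Alas1. Rat 2 lay above it for Alad, Cpox and Slc25a38 and below it for the others. None of the 9 was called in either direction, where 0.0483% of all genes were for vehicle-labelled and 0.0414% for model-labelled rats, so the test called next to nothing in this tissue. No gene of the 9 was free of overlap between vehicle-labelled and sham spleens, where 13.2% of all genes were. Vehicle-labelled against model-labelled spleens gave 0 of 9 and 0% of all genes by limma, with 1872 genes at an unadjusted p under 0.05. Without vehicle-labelled rat 5 the same comparison called 317 genes, among them Alad (1.20, adjusted p = 0.0392) and Cpox (1.31, adjusted p = 0.0497), where all arrays gave 0.44 and 0.61.

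None of the 12 erythroid markers passed in any spleen comparison. Relative to the sham mean, it averaged -0.21, 0.36 and -1.68 in vehicle-labelled rats 2, 4 and 5, -0.93, -0.21 and -1.32 in model-labelled animals 1, 2 and 3 and -0.40, 0.21 and 0.19 in sham rats. Proliferation markers averaged -0.20, 0.04 and -0.80 in the vehicle-labelled, -0.89, -0.27 and -0.93 in the model-labelled and -0.21, -0.07 and 0.29 in the sham rats. Vehicle-labelled rat 5 and model-labelled rats 1 and 3, the lowest in both lists, were also the lowest of the operated rats for every haem synthesis gene but Alas1. The part of these cell contents in the spread of the haem genes was not tested.

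Over the 9 spleen arrays, r with the erythroid mean was 0.991 for Fech, 0.979 for Urod, 0.974 for Alad, 0.972 for Cpox, 0.971 for Uros, 0.951 for Alas2 and 0.931 for Ppox. It was 0.716 for Slc25a38 and -0.171 for Alas1. Between Alas2 and the other genes it ran from 0.865 for Cpox to 0.959 for Urod, apart from 0.573 for Slc25a38 and -0.078 for Alas1. No gene of the surrounding lists passed in the spleen. Those with the smallest p in model-labelled against sham spleens included Clpx, a mitochondrial unfoldase that activates aminolevulinate synthase (-0.42 ± 0.12, adjusted p = 0.269), Ahsp (-1.21 ± 0.41, adjusted p = 0.39), Slc25a37 (-1.05 ± 0.39, adjusted p = 0.456) and Tfrc (-1.38 ± 0.56, adjusted p = 0.48).

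The brain had low and even readings of the erythroid genes, and none of the 9 passed there. Alas2 read 6.06, 6.31 and 6.28 in vehicle-labelled animals, 6.37, 6.75 and 6.46 in model-labelled animals and 6.22, 6.31 and 6.76 in sham rats. Vehicle-labelled and model-labelled rats did not overlap, by -0.31 ± 0.17 (adjusted p = 0.422), and both ranges reached into that of the sham rats. Fech read 6.52, 6.96 and 6.67 in vehicle-labelled animals, 6.46, 6.77 and 6.62 in model-labelled animals and 6.93, 6.94 and 6.89 in sham rats. The model-labelled rats lay below the sham rats by a small margin (-0.30 ± 0.14, adjusted p = 0.35).

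Cpox had the widest differences of the pathway in the brain, with readings of 6.74, 6.71 and 6.46 in vehicle-labelled animals, 5.94, 6.26 and 6.27 in model-labelled animals and 6.66, 6.53 and 6.96 in sham rats. Model-labelled rats were apart from both other groups, by -0.56 ± 0.15 from sham (adjusted p = 0.147), and vehicle-labelled rats exceeded them by 0.48 ± 0.15 (adjusted p = 0.239). Slc25a38 read 7.65, 7.49 and 7.40 in vehicle-labelled animals, 7.30, 7.22 and 7.15 in model-labelled animals and 7.05, 7.14 and 7.31 in sham rats. Vehicle-labelled rats were apart from the other groups, by 0.35 ± 0.12 from sham (adjusted p = 0.375) and 0.29 ± 0.12 from the model-labelled rats (adjusted p = 0.31). Alas1 read 7.16, 7.74 and 7.36 in vehicle-labelled animals, 7.30, 7.45 and 7.42 in model-labelled animals and 7.22, 7.33 and 6.97 in sham rats, with overlap throughout and 0.25 ± 0.16 between vehicle-labelled and sham rats (adjusted p = 0.708).

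The cytosolic enzymes and Ppox stayed within overlapping ranges in the brain. Over the 9 arrays Alad ran from 5.59 to 6.17, Uros from 4.85 to 5.50, Urod from 6.97 to 7.86 and Ppox from 4.47 to 4.91. None of the 9 was called in either direction, where 0.0483% of all genes were in vehicle-labelled against sham brains, 1.16% in model-labelled against sham and 0.0551% in vehicle-labelled against model-labelled. Free of overlap were 1 of 9 in the first comparison (13.4% of all genes), 2 of 9 in the second (20.1%) and 3 of 9 in the third (21.5%), of which the first and the second are near the share of all genes. The medians of the 9 were -0.06, -0.01 and 0.03. Without the brain arrays of sham 5 and vehicle 2, no member was called either. In the haem degradation list Hmox1, the inducible haem oxygenase that opens the ring, had the smallest p in both operated groups against sham, at 2.69 ± 0.55 in vehicle-labelled rats (adjusted p = 0.13) and 2.29 ± 0.55 in model-labelled rats (adjusted p = 0.101), neither of which passed.

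The effect of the vehicle label differed between tissues for part of the pathway, by a direct test of that difference in a fit of all 27 arrays. The difference between vehicle-labelled and sham rats was larger in white blood cells than in spleen by 3.43 ± 0.50 for Fech (adjusted p = 0.000677), 3.32 ± 0.43 for Alas2 (adjusted p = 0.000182) and 2.35 ± 0.49 for Urod (adjusted p = 0.0143). These are 3 of 9, where 0.724% of all genes were called higher. The Urod call was lost in 3 of 17 alternatives (without white blood cell vehicle 2 or spleen sham 5, or after quantile normalization), at adjusted p up to 0.0617. Against the brain, the difference was larger in white blood cells by 3.08 ± 0.50 for Fech (adjusted p = 0.00536) and 2.88 ± 0.43 for Alas2 (adjusted p = 0.00242), 2 of 9 where 0.441% of all genes were called higher. Urod, at 1.67 ± 0.49, did not pass there (adjusted p = 0.14). This fit shares a gene's spread over all tissues, so the spleen, where Urod spread most, enters that standard error. In the fits of a single tissue, the difference of Urod from sham had a standard error of 0.19 in white blood cells and 0.205 in brain.

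The same tests on the model label called none of the 9. Alas2 had 1.85 ± 0.43 in white blood cells over spleen (adjusted p = 0.449), where 0% of all genes were called and 861 had an unadjusted p under 0.05. Against the brain it had 1.00 ± 0.43 (adjusted p = 0.351), where 1.07% of all genes were called in either direction. Whether the authors normalized the tissues together is not given in the sources used here, which touches any value set across tissues.

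In sham rats the pathway was highest in the spleen. White blood cells averaged 8.68 ± 0.36 for Alas2 (SD, n = 3), spleens 10.9 ± 0.49 and brains 6.43 ± 0.29. The order of spleen, white blood cells and brain held at both steps, with white blood cells at -2.17 ± 0.31 from spleen (SE; adjusted p = 4e-06) and 2.25 ± 0.31 from brain (4.77-fold, adjusted p = 6.75e-07). Spleen exceeded brain by 4.43 ± 0.31, or 21.5-fold (adjusted p = 5.66e-12). Fech had the same order, at 7.86 ± 0.38 in white blood cells, 10.02 ± 0.38 in spleens and 6.92 ± 0.03 in brains (SD, n = 3). Its lower step was less firm. White blood cells exceeded brain by 0.94 ± 0.36 (adjusted p = 0.0273), a call lost in 6 of 12 alternatives with adjusted p up to 0.11, among them those without white blood cell sham 3 or 5 or any 1 of the 3 sham brains (differences from 0.76 to 0.95).

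Cpox averaged 6.79 ± 0.16 in white blood cells, 9.67 ± 0.30 in spleens and 6.72 ± 0.22 in brains of sham rats (SD, n = 3). White blood cells lay at -2.88 ± 0.36 from spleen (adjusted p = 6.85e-07) and did not differ from brain beyond their spread (0.08 ± 0.36). Uros and Urod, at -3.06 ± 0.44 and -2.15 ± 0.34 in white blood cells relative to spleen (adjusted p = 4.72e-06 and 2.1e-05), and Alad, at -2.06 ± 0.37 (adjusted p = 9.62e-05), were likewise highest in spleen. Ppox was lower in white blood cells than in spleen by a smaller step (-1.23 ± 0.19, adjusted p = 1.36e-05), and Alas1 by the smallest one called (-0.74 ± 0.13, adjusted p = 5.49e-05). Slc25a38 did not pass in white blood cells against spleen (-0.55 ± 0.24, adjusted p = 0.0737), against brain (-0.18 ± 0.24), or in spleen against brain (0.37 ± 0.24, adjusted p = 0.216).

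White blood cells were thus called lower than spleen for 8 of 9 genes, where 19.3% of all genes were. Spleen was called higher than brain for 8 of 9, where 27.4% of all genes were; besides Alas2, these differences ran from 0.51 ± 0.13 for Alas1 (adjusted p = 0.00133) to 3.10 ± 0.36 for Fech (adjusted p = 4.79e-08). White blood cells were called higher than brain for 2 of 9, Alas2 and Fech, where 31.1% of all genes were. This count does not set the pathway apart from all genes. These groups did not overlap for 6 of 9, beside 8976 of all 14506 genes. White blood cells of vehicle-labelled rats averaged 11.3 ± 0.35 for Alas2 (SD, n = 3), beside 10.9 ± 0.49 in sham spleens. For Uros they averaged 5.22 ± 0.33, beside 7.62 ± 0.21 in sham spleens. These values across both group and tissue were not tested.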

How the data were processed

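Total RNA of white blood cells, spleen and brain was labelled and hybridised to Affymetrix rat arrays. The authors deposited 1 value per probe and array, made with RMA (background correction, normalization between arrays and probe summary) per the submitters' processing notes. Its version, and whether tissues were normalized together, are not given in the sources used here. The labels name no scale; the deposited values are read as log2 intensities, since they run from 1.53 to 13.49. Of 27596 probes, 15310 carry a single gene symbol in the platform annotation, 323 several and 11963 none. A gene with several probes (527 of 14506) is given by its brightest probe, on average over all 27 arrays.

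No further normalization was applied. Each tissue was fitted alone (9 arrays, a mean per group, 6 residual degrees of freedom) with limma 3.58.1 in R 4.3.3, and tests across tissues used all 27 arrays (18 degrees of freedom). In the latter a gene's spread is shared over tissues, so a wide spread in the spleen also enters comparisons of white blood cells with brain. The script was tested on simulated data. The members and the surrounding gene lists were chosen with earlier results of these data known. Of 183 listed symbols 151 were measured. Named in each list were the up to 4 genes with the smallest p among those called, or up to 2 where none was. Alternatives were quantile normalization, a filter at the 40th percentile, the mean of a gene's probes, trended robust variances, all 27 arrays, a block and leaving out each array. The block was the replicate number within a tissue and the rat across tissues, and the main fits had none. The 3 tissues of a number and title come from the same rat per the labels. Deviations of such arrays from their group means correlated at -0.06 to 0.52, with a median of 0.13 over 27 pairs. The same number in different groups is not stated to pair rats, and the 12 such pairs within a tissue had a median of -0.03. No 2 arrays held identical values, and the labels give no batch or scan date.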

Additional observations from a re-analysis of the deposited data

Results flagged for a closer look

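The effect of the vehicle label (vehicle-labelled minus sham) differed between tissues for 3 genes of the pathway when that difference was tested directly. In white blood cells minus spleen it came to 3.32 for Alas2, 2.35 for Urod and 3.43 for Fech. In white blood cells minus brain it came to 2.88 for Alas2 and 3.08 for Fech. In single arrays, relative to each tissue's sham mean, every vehicle-labelled white blood cell array was above 0 for these genes, while in the spleen vehicle-labelled rats 2 and 5 were below 0 and rat 4 above it.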

How the results depend on the processing

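Of 1938 recomputed values of single members over 16 comparisons, 1909 kept their side of the threshold, 16 lost a call, 13 gained one and 0 changed sign while called. These include the mean of a gene's probes, which leaves the differences of the members as they are. Leaving out 1 array at a time, the number of members called ran from 3 to 6 for vehicle-labelled against sham white blood cells (4 with all arrays), from 3 to 4 against the model-labelled ones (3 with all), from 0 to 2 for vehicle-labelled against model-labelled spleens (0 with all, 2 without spleen vehicle 5), from 8 to 9 for sham white blood cells against sham spleens (8 with all) and from 1 to 2 for sham white blood cells against sham brains (2 with all, 1 without white blood cell sham 3 or 5 or brain sham 3 or 4, where the Fech call was lost). It ran from 2 to 3 for white blood cells minus spleen of the vehicle effect (3 with all), and the other comparisons kept their counts. With the block, 4 and 3 members were called in vehicle-labelled white blood cells against sham and model-labelled ones, and the block changed no other member count. Within a tissue the block was the replicate number, and the same-numbered arrays across groups share only a number. Across tissues the block was the rat, with an estimated correlation of 0.0957 between arrays of a rat. The main fit across tissues leaves that pairing out. The 3 arrays per group limit the precision.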

Other observations

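Alas2 and Urod were also compared by their changes from sham in each white blood cell array, a comparison chosen after their values were seen and not tested. The change of Alas2 minus that of Urod, each from its own sham mean on the log2 scale, was 0.92, 1.07 and 1.17 in vehicle-labelled rats and 1.08, 0.88 and 1.29 in model-labelled rats, against -0.35, -0.00 and 0.36 in sham rats. Both operated groups were thus apart from the sham rats and overlapped each other, although Urod itself overlapped between model-labelled and sham rats. In the spleen this difference was -0.12, -0.01 and 0.35 in vehicle-labelled rats and 0.35, 0.05 and 0.29 in model-labelled rats, against -0.29, 0.26 and 0.02 in sham rats, with all groups overlapping.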
